A study of Mus musculus with 9 samples.

Results

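The genes described here are 37 genes of the rod photoreceptor, the cell of dim-light vision. They were chosen by name, from the known roles of their products, and fall into 20 genes of phototransduction, 11 of outer segment structure and transport, 3 of the visual cycle and 3 transcription factors. All 37 were found by symbol among the 55487 genes counted, and all 37 were among the 21049 genes that passed the filter on low counts. In the rod outer segment, light activates the visual pigment, which turns on the G protein transducin. Transducin relieves the inhibition of the cGMP phosphodiesterase, cGMP falls, and the cGMP-gated cation channel closes. Arrestin, a pigment kinase and the RGS9 complex then shut the cascade off, guanylate cyclases restore cGMP, and the visual cycle returns the retinal chromophore to its light-sensitive form.

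The comparison is between 5 control and 4 2-DG libraries of total RNA from retinal explants. The retinas, from wild-type mice of strain C57Bl/6J aged 28 days after birth, were freed of sclera and pigment epithelium and kept for 48 h in medium with 5 mM glucose and the supplements B27 and N2. The 2-DG group also received 20 mM 2-deoxyglucose (2-DG), a glucose analog that blocks glycolysis. The methods then describe 1 h in Krebs' Ringer medium, and state that retinas for RNA-seq were processed immediately. Whether these retinas had that hour is not plain. The labels name each library a biological replicate but do not say that each came from a separate animal, so p-values measure only the spread between these samples, and they put all 9 libraries in batch 1. The question the comparison addresses is whether transcript levels differ when glycolysis is inhibited.

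Each library held between 11317734 and 51802249 estimated counts, and every one of the rod genes had at least 303 counts in every library. Levels are given as CPM, a gene's counts relative to the library size after scaling by the trimmed mean of M-values (TMM), and each fold change is log2, 2-DG minus control. On all genes, edgeR's quasi-likelihood test called 0 of 21049 genes at an adjusted p under 0.05. At an unadjusted p under 0.05 it passed 1526 genes. At an adjusted p under 0.05 DESeq2 called 251 genes and limma-voom with library weights 1222. Control replicate 2 stood apart from the other 8 libraries on the second principal component, at 143 against -45.5 to 18.9, and was left out in a second fit. On the first and larger component control replicate 5 and 2-DG replicate 4 lay at 124 and 101, against -80.0 to 51.0 in the other 7 libraries. The share of counts on mitochondrially encoded genes was 13.6% in 2-DG replicate 4, 10.7% in control replicate 2, 9.97% in control replicate 5 and 3.40% to 6.68% in the other 6 libraries. Since these are whole explants, fewer cells of a type and less RNA per cell cannot be told apart.

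Rod gene promoters are known targets of the homeodomain factor CRX, whose core site reads TAATCC, and of the leucine zipper factor NRL, whose sites hold TGCTGA. Both factors are among the rod genes measured here. RefSeq promoters of build GRCm38.p6 were given for 28 of the 37 genes, and both sets of letters were searched on both strands in the 250 bases before each start. The 28 genes have 31 such promoters. TAATCC was present in 12 of the 31 (38.7%), from 12 genes, against 6.25% of 32851 promoters of the same length. TGCTGA was found in 6 of the 31 (19.4%), against 16.1% of all promoters, and both sets of letters in 2 of the 31 (6.45%), against 0.962%. A match is a description of these letters and not evidence of a bound site. Shown here are the 120 bases before the start for the 3 windows that hold TAATCC at 2 places and for the single window that holds TGCTGA, chosen after the data were seen. Each is written 5′ to 3′ on the strand of its gene, with the matched letters in capitals (GGATTA is TAATCC read on the other strand).
Crx (chr7:15879956-15880075, minus strand): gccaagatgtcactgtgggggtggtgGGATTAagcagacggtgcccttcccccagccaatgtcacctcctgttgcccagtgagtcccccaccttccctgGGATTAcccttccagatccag
Gucy2f (chrX:142196937-142197056, minus strand): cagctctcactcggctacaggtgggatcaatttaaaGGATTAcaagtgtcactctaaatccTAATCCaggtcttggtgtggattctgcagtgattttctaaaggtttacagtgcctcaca
Cngb1 (chr8:95306586-95306705, minus strand): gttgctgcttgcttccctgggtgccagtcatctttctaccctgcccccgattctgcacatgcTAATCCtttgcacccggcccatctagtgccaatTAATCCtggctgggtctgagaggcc
Pde6b (chr5:108388253-108388372, plus strand): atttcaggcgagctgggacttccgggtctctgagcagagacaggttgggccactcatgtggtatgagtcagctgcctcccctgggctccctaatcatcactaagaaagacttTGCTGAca
The 12 genes with TAATCC and the 16 without had like medians. Control replicate 2 held 3.97 times the median of the other 8 libraries in the former and 3.89 times in the latter. Their median fold changes over all 9 libraries were -0.49 and -0.39, and without control replicate 2 they were 0.14 and 0.19, with no test made.

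The rod genes differed widely in level. Per kilobase of annotated exon, the median over the 9 libraries was highest for Gnat1, the alpha subunit of rod transducin, at 593 CPM per kb. It was followed by the transducin beta subunit Gnb1 (258 CPM per kb), which other cells also use, the disc rim tetraspanin Prph2 (248), the lipid-binding transport factor Unc119 (233) and the Prph2 partner Rom1 (205). The plot of levels per kilobase shows that these 4 followers overlapped over the libraries, and the order among them is not resolved. The length used counts every annotated exon of a gene, not only the exons of the transcript in use. For the rod arrestin gene Sag it was 8904 bases, which gave 105 CPM per kb, while 95.2% of the Sag counts lay on a transcript of 1719 bases. The order of the genes therefore depends on the length chosen. The lowest level per kilobase was that of Gucy2f, one of the guanylate cyclases of the photoreceptor, at 3.17 CPM per kb. The guanylate cyclase Gucy2e (14.5), the RGS protein Rgs9 (14.5) and the matrix proteoglycan Impg1 (13.3) were next and overlapped each other.

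**Figure D1:**
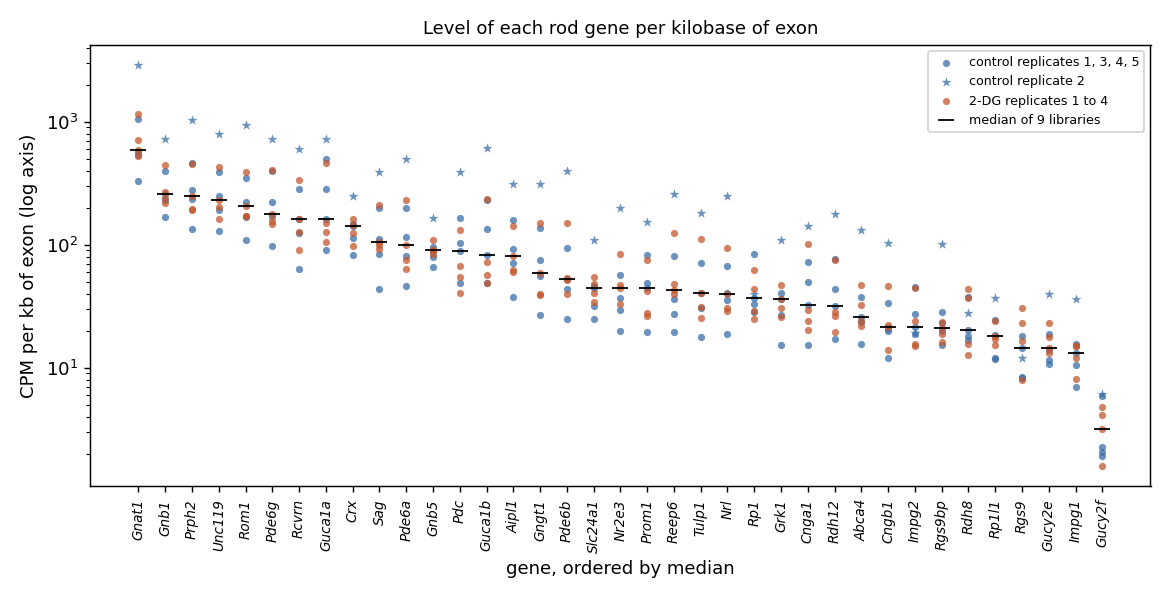
Level of each of the 37 rod genes in each of the 9 libraries, as CPM per kilobase of exon on a log axis, with genes ordered by their median (black dash). Blue points are control libraries, orange points are 2-DG libraries and the blue star is control replicate 2, which lies above every other library for 33 of the 37 genes.

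Between 2-DG and control explants, 0 of the 37 rod genes passed an adjusted p under 0.05 in edgeR, against 0% of all genes. At an unadjusted p under 0.05, 0 of the 37 passed, against 7.25% of all genes tested, of which 2.42% were higher and 4.83% lower in 2-DG. The other tools also called 0 of the 37, DESeq2 against 0.676% of the genes it tested and limma-voom against 5.81%. In edgeR, fitted fold changes were below 0 for 35 of the 37 genes, against 50.8% of all genes, with a median of -0.47 for the rod genes and -0.01 over all genes. Without control replicate 2, again 0 of the 37 genes passed at either level, against 0.0775% of all genes at an adjusted and 8.99% at an unadjusted p under 0.05 (2.92% higher and 6.07% lower). Fold changes were then above 0 for 26 and below 0 for 11 of the genes, against 46.9% of all genes below 0. The median moved to 0.15, against 0.03 over all genes, and 24 of the 37 genes changed sign, a count not taken over all genes. Of the fits leaving out any other library, 2 gave rod genes at an unadjusted p under 0.05, namely 1 gene lower without control replicate 1, against 5.68% of all genes, and 1 higher and 3 lower without 2-DG replicate 4, against 3.38 and 9.49%. The control and 2-DG libraries overlapped for every one of the 37 genes with all 9 libraries, against 2.93% of all genes whose groups did not overlap, and again without control replicate 2, against 7.05%.

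The medians of the 4 subgroups all turned from below to above 0 when control replicate 2 was left out, with no test made between subgroups. Median fold changes over all 9 libraries and without control replicate 2 were -0.53 and 0.17 for the phototransduction genes, -0.40 and 0.10 for outer segment structure, -0.59 and 0.23 for the visual cycle, and -0.40 and 0.24 for the transcription factors. Control replicate 2 is not the only library the direction rests on. Without it, leaving out 2-DG replicate 4 as well took the median over the 37 genes to -0.16, leaving out control replicate 1 took it to -0.05, and leaving out control replicate 5 took it to 0.39. These further fits were chosen after the data were seen. The 95% intervals of the fold changes were wide, with the plot of fold changes showing every interval reaching across 0 in both fits. For Gnat1 the interval ran from -1.90 to 0.84 over all libraries and from -0.68 to 1.20 without control replicate 2, so a fall and a rise were both inside each of them.

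**Figure D2:**
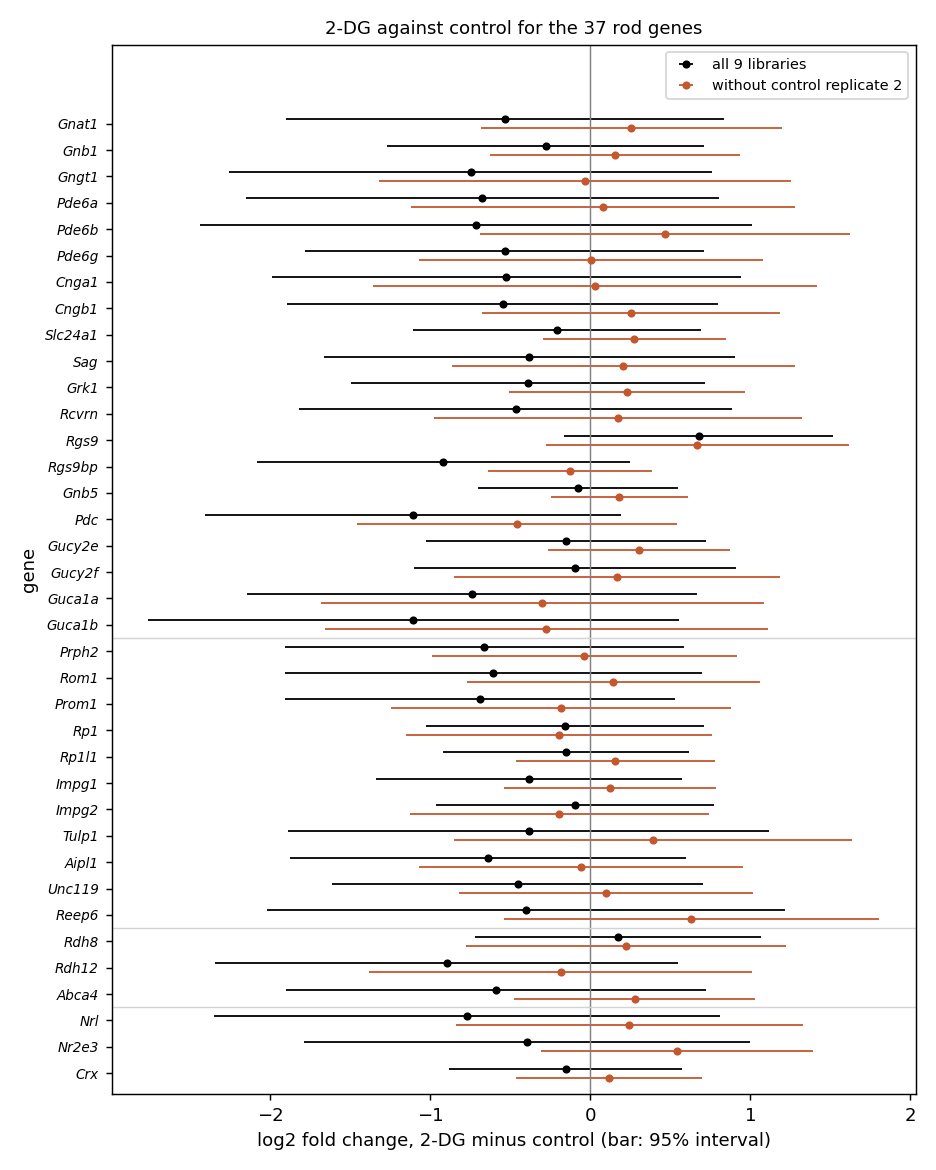
Fitted log2 fold change, 2-DG minus control, of the 37 rod genes (points) with 95% intervals (bars), from all 9 libraries (black) and without control replicate 2 (orange), with grey lines between subgroups. Every interval spans 0, and 24 of the 37 genes lie on different sides of 0 in the 2 fits.

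Spread within the control group was far larger than the distance between the groups. The mean log2 level of the 37 genes was 7.02, 9.601, 7.90, 7.82 and 8.43 in control replicates 1 to 5 and 7.59, 7.999, 7.60 and 8.48 in 2-DG replicates 1 to 4. Controls thus held both the lowest and the highest library, and all 4 2-DG libraries lay between them. The rod genes together took 4.54% of all counts in control replicate 2 (95% Wilson interval 4.53 to 4.55%) and 0.727% in control replicate 1 (0.724 to 0.731%), with 1.08 to 2.03% in the other 7 libraries. These intervals cover counting error only.

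Control replicate 2 was the highest of the 9 libraries for 33 of the 37 rod genes, against 23% of all genes tested. It lay at least 2-fold above the median of the other 8 libraries for 31 of the 37, against 18.9% of all genes, and the median ratio was 4.15 for the rod genes and 0.964 over all genes. Guca1b, with a ratio of 7.86, and Pde6b, with 7.57, stood furthest out. Control replicate 1 was the lowest library for 30 of the 37. Among the 8 libraries without control replicate 2, the highest was 2-DG replicate 4 or control replicate 5 for 25 of the genes, and neither count was taken over all genes. These 2 libraries and control replicate 2 are the 3 with the highest mitochondrial shares, whose part in the levels was not tested.

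**Figure D3:**
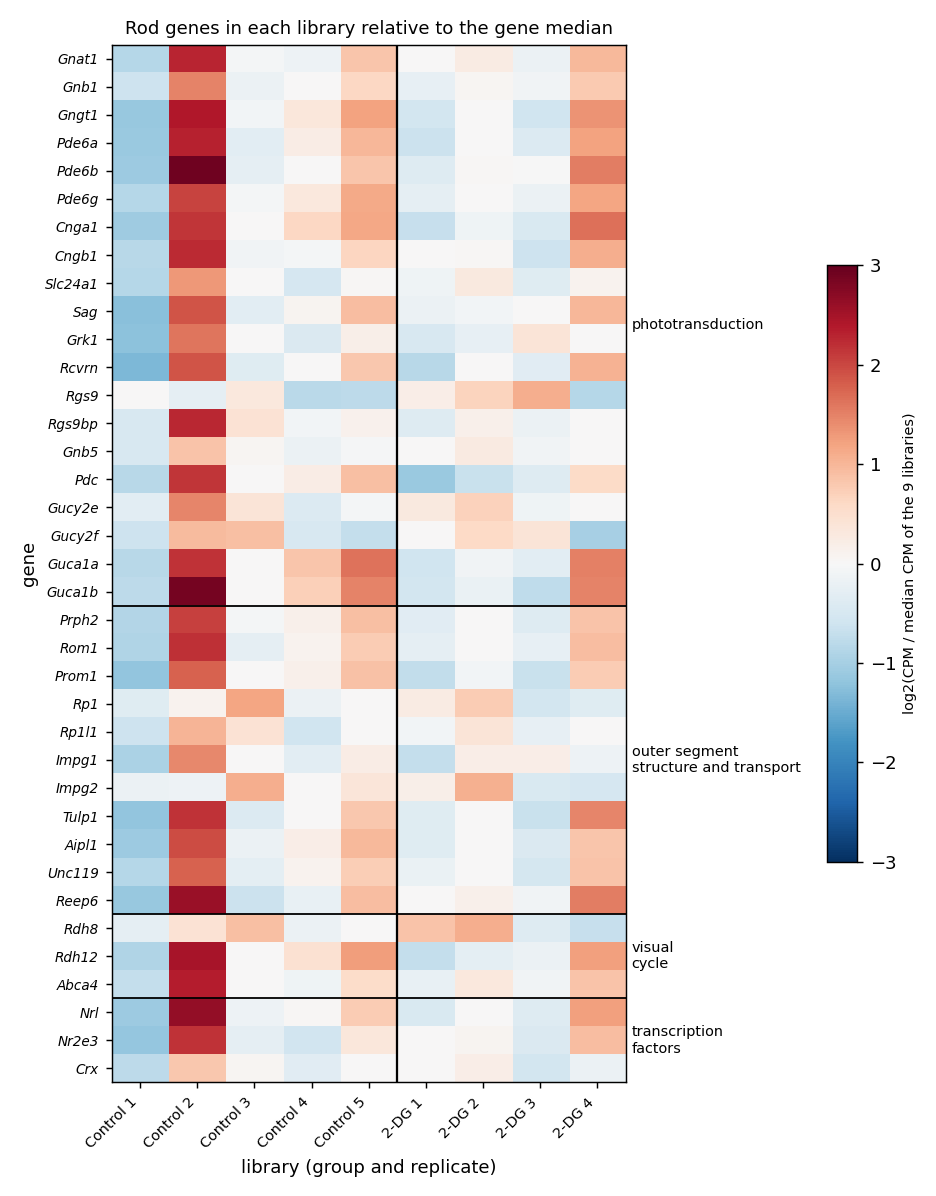
Level of the 37 rod genes (by subgroup) in each library (columns) as log2 of its CPM over the gene's median CPM across the 9 libraries, red above and blue below the median. The column of control replicate 2 is the reddest and that of control replicate 1 mostly blue, while the 2-DG columns lie between them.

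Transducin couples the pigment to the phosphodiesterase. Gnat1 (ENSMUSG00000034837, GRCm38 chr9:107674474-107679712, minus strand) was measured at 994, 8792, 1719.6, 1621 and 3204 CPM in control replicates 1 to 5 and 1795, 2146, 1587 and 3495 CPM in 2-DG replicates 1 to 4. Control replicate 2 was more than 2-fold above every other library, and the 2-DG values lay within the control range. The mean was 3266 ± 3194 CPM (SD, n = 5) in controls and 2256 ± 858 CPM (SD, n = 4) in 2-DG explants, or 1884 ± 937 CPM (SD, n = 4) in controls without replicate 2. Its fold change was -0.53 ± 0.62 (SE), with an adjusted p of 0.859, and 0.26 ± 0.42 (SE) without control replicate 2, with an adjusted p of 0.946. Gngt1, the gamma subunit of rod transducin, gave 94.9, 1097, 197, 264 and 481 CPM in control replicates 1 to 5 and 141, 208, 137 and 530.2 CPM in 2-DG replicates 1 to 4. The same libraries were high and low as for Gnat1. The fold change of Gngt1 was -0.75 ± 0.68 (SE) (adjusted p = 0.831) and -0.03 ± 0.57 (SE) (adjusted p = 0.997) without control replicate 2. The beta subunit Gnb1 had fold changes of -0.28 ± 0.45 (SE) and 0.15 ± 0.35 (SE), neither past the test.

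The rod phosphodiesterase has the catalytic subunits Pde6a and Pde6b and the inhibitory subunit Pde6g. Pde6a was measured at 215, 2314, 379, 546 and 938 CPM in control replicates 1 to 5 and 299, 469, 351 and 1079 CPM in 2-DG replicates 1 to 4. Pde6g was measured at 228, 1679, 398, 512 and 913 CPM in control replicates 1 to 5 and 344, 413, 364 and 938 CPM in 2-DG replicates 1 to 4. In both, control replicate 2 was the highest library, 2-DG replicate 4 and control replicate 5 followed, and control replicate 1 was the lowest. Fold changes were -0.68 ± 0.67 (SE) for Pde6a and -0.53 ± 0.56 (SE) for Pde6g over all 9 libraries (adjusted p = 0.839 and 0.849). Without control replicate 2 they were 0.08 ± 0.53 (SE) and 0.00 ± 0.48 (SE), so the fitted difference for Pde6g was close to 0. Pde6b, named after its values were seen, held 125, 1989.9, 219, 264 and 472 CPM in control replicates 1 to 5 and 202, 271, 261 and 761 CPM in 2-DG replicates 1 to 4. It spread the most of the 3 subunits, and its fold change went from -0.72 ± 0.78 (SE) to 0.47 ± 0.51 (SE) when control replicate 2 was left out. Its promoter window with TGCTGA is printed above.

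Cnga1 and Cngb1 form the cGMP-gated channel of the rod, and Slc24a1 is the sodium, calcium and potassium exchanger beside it. The channel's alpha subunit, Cnga1, stood at 97.5, 907, 206, 317 and 462 CPM in control replicates 1 to 5 and 127, 187, 151 and 641 CPM in 2-DG replicates 1 to 4. For Cngb1 the values were 113, 960.3, 188, 194 and 317 CPM in control replicates 1 to 5 and 202, 208, 131 and 428 CPM in 2-DG replicates 1 to 4. Over the other 8 libraries Cnga1 spanned 6.58-fold between its lowest and highest library, and Cngb1 3.78-fold. Fold changes of -0.52 ± 0.66 (SE) and -0.55 ± 0.61 (SE) became 0.03 ± 0.61 (SE) and 0.25 ± 0.41 (SE) without control replicate 2, and the adjusted p of the 3 genes of this role ran from 0.855 to 0.921 over all libraries. Slc24a1, with fold changes of -0.21 ± 0.41 (SE) and 0.28 ± 0.25 (SE), spanned only 2.20-fold over the other 8 libraries.

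Of the 7 genes that shut the cascade off or bind its parts, Pdc had the smallest unadjusted p of all 37 rod genes over the 9 libraries, 0.0867. Pdc encodes phosducin, which binds the transducin beta and gamma subunits, and was measured at 165, 1310.5, 296, 347 and 549 CPM in control replicates 1 to 5 and 137, 185, 226 and 441 CPM in 2-DG replicates 1 to 4. The means were 533 ± 456 CPM (SD, n = 5) and 247 ± 134 CPM (SD, n = 4), and 339 ± 159 CPM (SD, n = 4) in controls without replicate 2. Its lowest value was in a 2-DG library, but 2-DG replicate 4 lay above 3 of the 5 controls. The fold change was -1.11 ± 0.59 (SE) (95% interval -2.41 to 0.19, adjusted p = 0.733) and -0.46 ± 0.44 (SE) (interval -1.46 to 0.54, adjusted p = 0.87) without control replicate 2. Pdc kept a negative fold change when any single library was left out, between -1.55 and -0.46, and of the fits leaving out 1 library its unadjusted p went below 0.05 only without control replicate 1 (0.0339) or 2-DG replicate 4 (0.0327). In limma-voom on all 9 libraries 2 of the 37 rod genes had an unadjusted p under 0.05, against 26% of all genes, Pdc (0.0111, lower in 2-DG) and Rgs9 (0.0207, higher).

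Rcvrn encodes recoverin, the calcium sensor that restrains the pigment kinase, and was measured at 65.8, 626, 130.3, 168 and 296 CPM in control replicates 1 to 5 and 94.9, 169.8, 133 and 347 CPM in 2-DG replicates 1 to 4. Its fold change was -0.47 ± 0.61 (SE) (adjusted p = 0.876) and 0.17 ± 0.51 (SE) without control replicate 2. Sag, which encodes rod arrestin and was named after its values were seen, gave 392, 3450.3, 745, 990.2 and 1784 CPM in control replicates 1 to 5 and 826, 884, 934 and 1878 CPM in 2-DG replicates 1 to 4. Among the 2-DG libraries of Sag, replicate 4 lay far above the other 3, which were close together. The fold changes of Sag were -0.38 ± 0.58 (SE) and 0.21 ± 0.47 (SE) without control replicate 2. Grk1, the pigment kinase, had -0.39 ± 0.50 (SE) and 0.23 ± 0.33 (SE), and Gnb5, the beta subunit that pairs with RGS9, had -0.08 ± 0.28 (SE) and 0.18 ± 0.19 (SE), the smallest spread of this role with 1.66-fold over the other 8 libraries.

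The RGS9 complex speeds GTP hydrolysis by transducin, and Rgs9bp anchors it to the membrane. Both were added after their values were seen. For Rgs9bp the values were 100.2, 667, 188, 130.4 and 152 CPM in control replicates 1 to 5 and 107, 155, 123 and 139 CPM in 2-DG replicates 1 to 4. Control replicate 2 alone stood out, at 4.96 times the median of the other 8 libraries, which differed by no more than 1.88-fold. The fold change of Rgs9bp was -0.92 ± 0.53 (SE) (adjusted p = 0.751) with control replicate 2 and -0.13 ± 0.23 (SE) without it. Rgs9 itself, at 92.6, 76.96, 115, 52.8 and 53.4 CPM in control replicates 1 to 5 and 106, 147, 196 and 50.8 CPM in 2-DG replicates 1 to 4, went against most of the other rod genes. It was highest in 2-DG replicate 3 and lowest in 2-DG replicate 4, and control replicate 2 was below the median of the other libraries. Its fold change was 0.68 ± 0.38 (SE) (95% interval -0.16 to 1.52, adjusted p = 0.745), and 0.67 ± 0.42 (SE) (adjusted p = 0.745) without control replicate 2, where it had the smallest unadjusted p of the 37 genes, 0.144. With 1 library left out the fold change of Rgs9 ran from 0.38 (without 2-DG replicate 3) to 0.94 (without 2-DG replicate 4, unadjusted p = 0.0136 in edgeR).

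Guanylate cyclases rebuild cGMP under control of the calcium-binding activators Guca1a and Guca1b. Guca1a was measured at 79.1, 634, 140.3, 249.7 and 437 CPM in control replicates 1 to 5 and 92.1, 130.4, 112 and 403 CPM in 2-DG replicates 1 to 4. Guca1b was measured at 118, 1493, 203, 331 and 567 CPM in control replicates 1 to 5 and 138, 177, 119.6 and 572 CPM in 2-DG replicates 1 to 4. In both activators the 3 lowest 2-DG libraries lay near the lower end of the controls, while 2-DG replicate 4 was beside control replicate 5. The fold change of Guca1b was -1.11 ± 0.75 (SE) (adjusted p = 0.783), and -0.28 ± 0.61 (SE) without control replicate 2. For Guca1a the corresponding values were -0.74 ± 0.63 (SE) (adjusted p = 0.822) and -0.30 ± 0.61 (SE). Without 2-DG replicate 4 they were -1.90 for Guca1b and -1.47 for Guca1a, with unadjusted p of 0.0318 and 0.0382 in edgeR. The cyclases themselves followed the libraries less closely. Gucy2e held 107, 366, 175, 99.3 and 128 CPM in controls and 162, 213, 121 and 133 CPM in 2-DG explants, in replicate order. Gucy2f held 16.7, 49.5, 48.2, 18.5 and 15.7 CPM and 25.7, 38.7, 33.8 and 12.8 CPM. For Gucy2f, control replicates 2 and 3 were nearly equal and 2-DG replicate 4, high for most rod genes, was the lowest library. Both cyclases were named after their values were seen, with fold changes of -0.15 ± 0.40 (SE) and -0.09 ± 0.45 (SE) over all libraries and of 0.30 ± 0.25 (SE) and 0.17 ± 0.45 (SE), on the other side of 0, without control replicate 2.

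The disc rim protein Prph2 and the disc membrane protein Prom1 shape the outer segment. Prph2 was measured at 407, 3102, 712, 828 and 1385 CPM in control replicates 1 to 5 and 591, 744, 569.8 and 1349 CPM in 2-DG replicates 1 to 4. The level of Prom1 was 139.7, 1089, 318, 353 and 587 CPM in control replicates 1 to 5 and 190.3, 301, 201 and 542 CPM in 2-DG replicates 1 to 4. For both, control replicate 2 was highest and control replicate 1 lowest. Fold changes were -0.66 ± 0.56 (SE) for Prph2 (adjusted p = 0.822) and -0.69 ± 0.55 (SE) for Prom1 (adjusted p = 0.815). They were -0.04 ± 0.42 (SE) and -0.18 ± 0.47 (SE) without control replicate 2. Rom1, which forms complexes with Prph2, went from -0.61 ± 0.59 (SE) to 0.14 ± 0.40 (SE). The axoneme gene Rp1l1 and the matrix gene Impg1 had fold changes of -0.15 ± 0.35 (SE) and -0.38 ± 0.43 (SE), which turned to 0.16 ± 0.28 (SE) and 0.12 ± 0.29 (SE) without control replicate 2. Their ratios of control replicate 2 to the other libraries, 2.09 and 2.85, were below the median of the rod genes.

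Aipl1, a chaperone for the phosphodiesterase, and Unc119 represent folding and transport. Aipl1 held 119, 992, 224, 291 and 499 CPM in control replicates 1 to 5 and 199, 253, 189 and 451 CPM in 2-DG replicates 1 to 4. Unc119 stood at 317, 1956, 467, 613 and 946 CPM in controls and 499, 571, 399 and 1041 CPM in 2-DG explants, in replicate order. The groups overlapped throughout, with fold changes of -0.64 ± 0.56 (SE) (adjusted p = 0.825) and -0.45 ± 0.52 (SE) (adjusted p = 0.859), and of -0.06 ± 0.45 (SE) and 0.10 ± 0.41 (SE) without control replicate 2. Reep6, a membrane protein needed by rods and named after its values were seen, was measured at 49.1, 644, 68.6, 91.3 and 203 CPM in control replicates 1 to 5 and 107, 119, 100.3 and 313 CPM in 2-DG replicates 1 to 4. Its 2-DG replicate 4 lay well above the other 3 2-DG libraries, which were close to each other, and its fold change went from -0.40 ± 0.73 (SE) to 0.63 ± 0.52 (SE) without control replicate 2. Tulp1, a transport protein of the inner segment, moved in the same way, from -0.39 ± 0.68 (SE) to 0.39 ± 0.55 (SE).

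The visual cycle genes of the rod clear and reduce the spent chromophore. Abca4, the flippase of the disc rim, was measured at 189, 1589, 309.5, 285 and 456 CPM in control replicates 1 to 5 and 265, 387, 289 and 564 CPM in 2-DG replicates 1 to 4. Rdh12, a retinol dehydrogenase of the inner segment, gave 50.5, 528, 94.98, 129 and 228 CPM in control replicates 1 to 5 and 58.1, 77.99, 83.9 and 223 CPM in 2-DG replicates 1 to 4. Rdh8, the retinol dehydrogenase of the outer segment, had 23.7, 39.02, 53.1, 25.3 and 28.7 CPM in control replicates 1 to 5 and 52.2, 61.3, 21.9 and 17.8 CPM in 2-DG replicates 1 to 4. Abca4 and Rdh12 were highest in control replicate 2, by more than 2-fold over any other library, while Rdh8 was highest in 2-DG replicate 2 and lowest in 2-DG replicate 4. Fold changes over all libraries were -0.59 ± 0.59 (SE), -0.90 ± 0.65 (SE) and 0.17 ± 0.40 (SE) (adjusted p = 0.841, 0.793 and 0.933). Without control replicate 2 they were 0.28 ± 0.33 (SE), -0.19 ± 0.53 (SE) and 0.23 ± 0.44 (SE).

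Nrl, Nr2e3 and Crx set the rod program, Nrl as the factor that commits precursors to the rod fate, Nr2e3 as the receptor that represses cone genes and Crx as the factor shared by rods and cones. Nrl was measured at 106, 1415, 204, 232 and 382 CPM in control replicates 1 to 5 and 163, 226, 174 and 534 CPM in 2-DG replicates 1 to 4. Nr2e3 held 67.4, 674, 125, 99.9 and 190.1 CPM in control replicates 1 to 5 and 149.9, 158, 111 and 284 CPM in 2-DG replicates 1 to 4. Crx, at 261, 790.2, 469.5, 359 and 451 CPM in control replicates 1 to 5 and 455, 516, 307 and 397 CPM in 2-DG replicates 1 to 4, varied the least of the 3. The first pair was several-fold higher in control replicate 2 than in the median of the other libraries, with ratios of 6.59 and 4.91, and Crx less so, with 1.86. Their fold changes were -0.77 ± 0.72 (SE), -0.40 ± 0.63 (SE) and -0.15 ± 0.33 (SE) (adjusted p = 0.832, 0.898 and 0.925). Without control replicate 2 all 3 were above 0, at 0.24 ± 0.48 (SE), 0.54 ± 0.38 (SE) and 0.12 ± 0.26 (SE), and none passed the test.

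A few rod genes did not share the common pattern over the libraries. Over the 8 libraries without control replicate 2, the level of 23 of the 37 genes had a Pearson correlation above 0.85 with the mean of the other 36, up to 0.97. For 8 genes the correlation was between 0.53 and 0.79, and for 6 it was under 0.25. These values describe points that share libraries and scaling, and carry no test. The 6 were Rgs9 (-0.52), Gucy2f (-0.24), Rdh8 (-0.09), Impg2 (0.12), Rp1 (0.13) and Gucy2e (0.23). Control replicate 2 was not the highest library for 4 genes, Rgs9, Rp1, Impg2 and Rdh8, all of them among these 6. Rp1, a microtubule protein of the axoneme, was measured at 352, 492, 1041, 403 and 456 CPM in control replicates 1 to 5 and 536, 767, 309 and 355 CPM in 2-DG replicates 1 to 4. Impg2, a proteoglycan of the matrix around the outer segment, held 173, 177, 421, 197 and 255 CPM in controls and 224, 410.1, 144 and 139.6 CPM in 2-DG explants, in replicate order. Both were named after their values were seen, and both were highest in control replicate 3 with 2-DG replicate 2 next. Their fold changes were -0.16 ± 0.39 (SE) and -0.09 ± 0.39 (SE), and they stayed below 0 at -0.20 ± 0.42 (SE) and -0.19 ± 0.41 (SE) without control replicate 2.

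**Figure D4:**
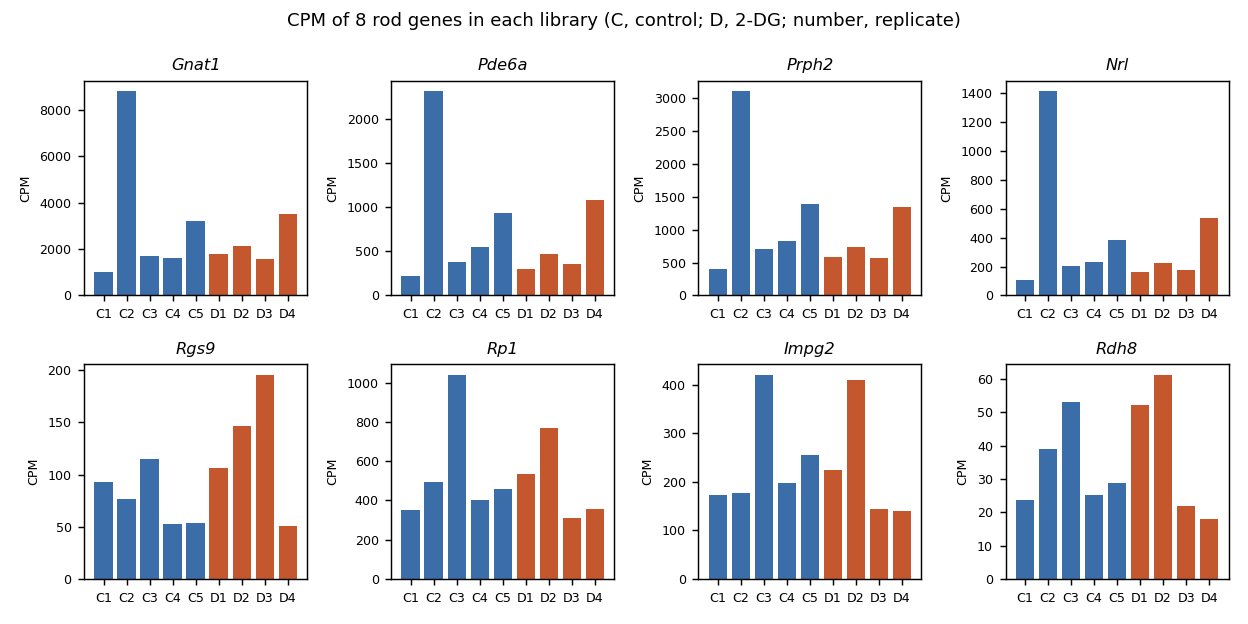
CPM of 8 rod genes in each library as bars from 0 (blue, control replicates C1 to C5; orange, 2-DG replicates D1 to D4; 1 library a bar). In the upper row Gnat1, Pde6a, Prph2 and Nrl peak in control replicate 2, and in the lower row Rgs9, Rp1, Impg2 and Rdh8 peak in other libraries.

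At transcript level, 182 transcripts of the 37 genes were listed and 165 were tested. In edgeR 0 of them passed an adjusted p under 0.05, against 0% of the 62900 transcripts tested, and the smallest adjusted p was 0.9996. At an unadjusted p under 0.05, 4 passed, against 3.45% of all transcripts, of which 2 were higher in 2-DG, against 1.17%, and 2 lower, against 2.28%. They were Gnb1-205 and Rgs9-205 (higher) and Gnat1-202 and Gnb1-207 (lower), named because they passed. All were minor forms, with 0.16, 0.95, 0.021 and 0.038% of the counts of their genes, in that order. Without control replicate 2, 3 passed at that level, against 4.5% of all transcripts, of which 2 were higher, against 1.26%, and 1 lower, against 3.24%. Among the most abundant transcripts of the 20 genes chosen by rule, fold changes were below 0 for 19, with a median of -0.57, and without control replicate 2 for 10 of the 20.

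For some of the rod genes, which transcript carried the counts differed between libraries. The full-length Abca4-201, of 50 exons (chr3:122044443-122180059), held 65.8, 14.3, 64.9, 27.002 and 14.1% of the gene's counts in control replicates 1 to 5 and 64.4, 62.2, 71.5 and 15.5% in 2-DG replicates 1 to 4. Abca4-207, which starts past the middle of the gene and has 27 exons (chr3:122132002-122180061), held 27.3, 72.0, 27.2, 65.0 and 76.4% in controls and 29.3, 29.8, 19.6 and 74.3% in 2-DG explants. Control replicates 2, 4 and 5 and 2-DG replicate 4 thus had most Abca4 counts on the 3′ transcript, and the other 5 libraries on the full-length one. The level of Abca4-201 alone, from the transcript table, was 131, 177, 213, 68.4 and 53.5 CPM in controls and 185, 249, 201 and 71.7 CPM in 2-DG explants, so control replicate 2 was not the highest library for it. Its fold change was 0.40 ± 0.43 (SE), above 0 where that of the whole gene was below, and 0.56 ± 0.45 (SE) without control replicate 2.

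The counts of Pde6a moved to a 3′ transcript in the same libraries. Pde6a-202, with 6 exons at the 3′ end, took 10.5, 57.8, 14.5, 55.1 and 64.3% of the counts of the 2 listed transcripts in controls and 13.7, 14.6, 4.48 and 71.4% in 2-DG explants. The full-length Pde6a-201 was measured at 211, 730.0, 347, 184 and 237 CPM in controls and 279, 429, 403 and 206 CPM in 2-DG explants, and control replicate 2 stayed highest. The fold change of Pde6a-201 was -0.12 ± 0.43 (SE), below 0 unlike that of Abca4-201, and 0.37 ± 0.27 (SE) without control replicate 2. Prom1-211, with 5 exons at the 3′ end, held between 2.16 and 21.5 CPM in 5 libraries and 297.8, 71.1 and 143 CPM in control replicates 2, 4 and 5 and 142 CPM in 2-DG replicate 4. Transcripts that start past the middle of the gene and end near its 3′ end, beside full-length ones, were listed for 14 of the rod genes. Their share was taken of the counts on these and full-length transcripts only, with other transcripts left out. It thus differs from the shares of all the gene's counts given above for Abca4, and was 85.5% for Abca4 in control replicate 2. In 6 of these 14 genes (Abca4, Impg2, Pde6a, Pde6b, Prom1 and Rp1l1) their share was higher in each of control replicates 2, 4 and 5 and 2-DG replicate 4 than in any other library. This set of libraries was first seen in Abca4, itself among the 6, and how many of all genes split alike was not counted. Some splits were small, as for Impg2, at 0.74 to 1.81% against 0.18 to 0.71%. For Pde6b, at 4.89 to 10.8% against 3.09 to 3.92%, the 3′ transcript is a retained intron. In Nr2e3 and Unc119 the share was lower in the same libraries, at 76.7 to 86.5% against 99.7 to 100% for Nr2e3 and at 24.1 to 32.5% against 33.6 to 37.9% for Unc119. In Nr2e3, though, the coding transcript Nr2e3-201, with 64.0% of the gene's counts, falls in the 3′ class. The transcript taken there as full-length is the retained intron Nr2e3-202. The Nr2e3 share therefore does not measure counts at the 3′ end. In the other 6 genes the libraries overlapped. The median of this share over the 14 genes was 10.8, 27.6, 11.99, 20.1 and 31.5% in controls and 12.1, 10.5, 8.94 and 27.2% in 2-DG explants. Over 3956 genes with such a pair of transcripts the median was 10.6% in control replicate 2 and 6.18 to 7.502% in the other 8 libraries. This measure was chosen after the data were seen, and its part in the gene levels was not tested. Transcripts annotated as retained introns held 2.14, 2.33 and 2.70% of the rod genes' counts in control replicate 5, 2-DG replicate 4 and control replicate 4, and 3.88 to 4.86% in the other 6 libraries. The share is an estimate, since transcripts of a gene share most of their sequence.

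The deposited gene counts were not plain sums of the deposited transcript counts, although the totals of each library were the same in both tables. For 21 of the 37 rod genes the gene count lay within 5% of the sum in every library, against 29.3% of 21012 genes. The gene count of Pde6a was 0.914, 1.34, 0.933, 1.33 and 1.41 times the sum in control replicates 1 to 5 and 0.925, 0.936, 0.832 and 1.498 times in 2-DG replicates 1 to 4. It was thus above the sum in the 4 libraries with much of the gene on its 3′ transcript and below it in the other 5. Prom1 had the widest range of these ratios, from 0.732 in 2-DG replicate 3 to 1.54 in control replicate 2. For Gnb1 the same 4 libraries lay below the sum, at 0.776, 0.846, 0.777 and 0.783, and the other 5 between 0.999 and 1.07. When gene counts were instead summed from the transcripts, a setting chosen after the data were seen, 0 of the 37 genes passed at an adjusted or unadjusted p under 0.05, against 0% and 7.17% of all genes. The median over the rod genes was then -0.43, with 34 of the 37 below 0. Without control replicate 2 as well, 0 passed at either level, against 0.0877% and 9.07%, and the median was 0.15 with 12 below 0. Summed in this way, Pde6a still stood highest in control replicate 2, at 1735 CPM against 239 to 728 CPM in the other libraries, and so did Abca4, at 1239 against 201 to 467 CPM.

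Other gene lists were followed through the same libraries. A list of 23 other rod and photoreceptor genes, none among the 37, summed to between 3227 and 12695 CPM in controls and between 4060 and 5282 CPM in 2-DG explants, with control replicate 2 highest and control replicate 1 lowest. Fold changes were below 0 for 19 of these 23 genes (median -0.52) and for 11 of the 23 (median 0.07) without control replicate 2. In each of these fits 1 of the 23 was higher at an unadjusted p under 0.05, against 2.42% and 2.92% of all genes. When every library was scaled to the summed counts of this list, the median over the 37 rod genes was 0.03, with 17 below and 20 above 0, against 42% of all genes below 0 and a median of 0.09 over all genes. In that scaling 0 were past an unadjusted p under 0.05, against 3.13% of all genes. Gnat1 was then at 0.05, Rcvrn at 0.04 and Crx at 0.12.

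Bipolar cell genes, from the layer that rods signal to, summed to 276 to 2506 CPM in controls and 487 to 3756 CPM in 2-DG explants. Fold changes were above 0 for 13 of 13, with a median of 0.63 and 0 at an unadjusted p under 0.05. With any 1 library left out 11 to 13 of the 13 were above 0, with a median between 0.36 (without control replicate 5) and 0.87 (without 2-DG replicate 4, where 2 were higher at an unadjusted p under 0.05, against 3.38% of all genes). Their mean was lowest in control replicate 5 and 2-DG replicate 4, both libraries with high rod genes.

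The direction of most other lists rested on single libraries, among them 2-DG replicate 3. Cone genes summed to 485 to 1204 CPM in controls and 408 to 1456 CPM in 2-DG explants, highest in 2-DG replicate 3 and then in control replicate 2. A single gene, Gnb3, which bipolar cells also use, made up 61.2 to 84.2% of the sum in 7 libraries, 46.1% in control replicate 2 and 39.3% in 2-DG replicate 3. The other 12 genes of the list summed to 118 to 166 CPM in the 7 libraries, 649 CPM in control replicate 2 and 884 CPM in 2-DG replicate 3. The fold changes were above 0 for 10 of 13 (median 0.58), with 1 higher at an unadjusted p under 0.05, against 2.42% of all genes. Without control replicate 2 the median was 0.99, and 4 were higher at that level, against 2.92% of all genes. The median was 0.33 without control replicate 5 and -0.55 without 2-DG replicate 3. Müller glia genes summed to 1944 to 7117 CPM in controls and 881 to 3649 CPM in 2-DG explants, of which Glul made up 44.2 to 64.9%, with a median fold change of -0.84 over 12 genes. At the level of single genes 5 of the 12 were lower at an unadjusted p under 0.05, against 4.83% of all genes. Leaving out 1 library gave medians from -1.65 (without 2-DG replicate 3, with 7 lower, against 4.42%) to -0.45 (without control replicate 5, with 2 lower, against 3.32%), and also 2 lower without 2-DG replicate 1 (median -0.51, against 3.17%) and without 2-DG replicate 2 (median -0.55, against 3.28%). Genes of the retinal pigment epithelium, which dissection was to remove, summed to 10.9 to 44.6 CPM in controls and 4.07 to 218 CPM in 2-DG explants, with the top in 2-DG replicate 3, and Rrh made up 8.81 to 74.3% of the sum. Of the 6 genes of this list that could be tested, 3 were higher in 2-DG at an unadjusted p under 0.05, against 2.42% of all genes, with a median of 2.34. Without 2-DG replicate 3, 0 were higher and 1 lower at that level, against 4.42% of all genes lower, and the median was -0.05, while over the other fits leaving out 1 library the median ran from 2.14 to 3.60. In 2-DG replicate 1 Mlana and Slc45a2 of that list were at 0.

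The ganglion cell list also moved with control replicate 2. Fold changes were below 0 for 12 of 12 ganglion genes (median -0.36) and for 6 of 12 (median -0.01) without that library, which was the highest of the 9 for 8 of the 12 genes, with 1698 summed CPM against 263 to 947 in the others. Nefl alone made up 32.1 to 57.0% of the ganglion sum. The median reached -1.02 when 2-DG replicate 3 was left out. For the amacrine and horizontal list the count below 0, 9 of 12 over all libraries, ran from 2 of 12 (median 0.27, without control replicate 1) to 11 of 12 (median -0.43, without 2-DG replicate 3, and -0.36, without control replicate 5), with 6 of 12 without control replicate 2. The microglia list, above 0 for 8 of 10, had a median from -0.55 (without 2-DG replicate 3) to 0.48 (without control replicate 1), and the vessel and pericyte list, above 0 for 7 of 10, from 0.12 (without 2-DG replicate 4) to 0.64 (without control replicate 5). Over all 9 libraries 1 of the 10 vessel and pericyte genes was higher at an unadjusted p under 0.05, against 2.42% of all genes. None of these lists held a gene with an adjusted p under 0.05 in edgeR over all 9 libraries or with 1 left out, and their part in the rod gene levels was not tested.

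**Figure D5:**
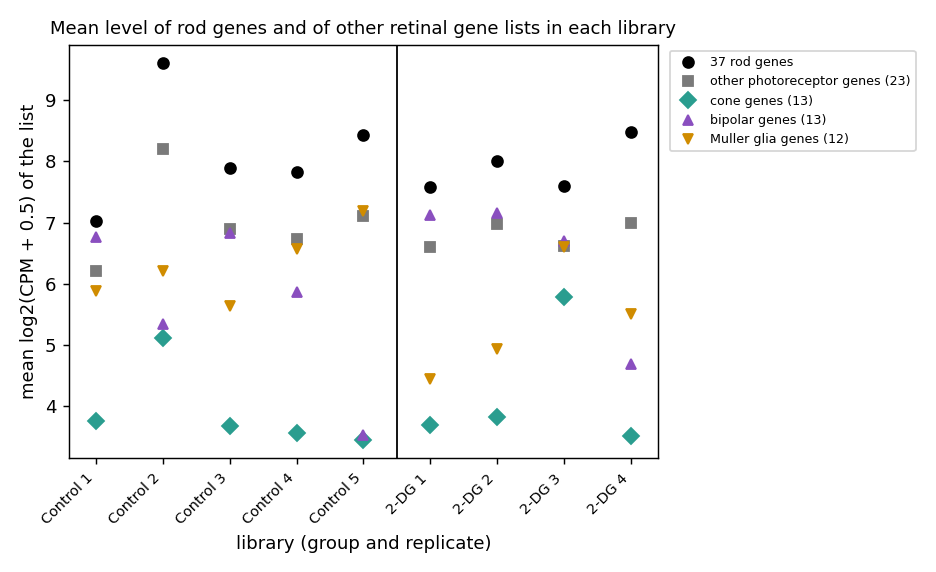
Mean log2 level (CPM + 0.5) in each library of the 37 rod genes (black circles) and of 4 other lists, with the number of genes in brackets. Rod and other photoreceptor genes peak together in control replicate 2, bipolar genes are lowest in control replicate 5 and 2-DG replicate 4, and cone genes are highest in 2-DG replicate 3.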

How the data were processed

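The authors made stranded total RNA libraries from retinal explants with a low-input kit and sequenced paired ends. Per the submitters' processing notes, kallisto and build GRCm38 were used; the version, annotation and summary of transcripts to genes are not given in the sources used here. The deposited gene and transcript tables hold estimated counts, not normalized, which were rounded to whole numbers and changed library totals by at most 0.00377%. Library totals are equal in both tables, but a gene value is often not the sum of its transcripts, so tests were repeated on such sums. A deposited CPM table and the authors' fold changes and p-values were not used. Depth limits little, since each rod gene had at least 303 counts in every library, and counting error is then smaller than the spread between libraries.

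In edgeR 4.0.16 (R 4.3.3), genes passing filterByExpr were scaled by TMM and tested with glmQLFit and glmQLFTest for 2-DG against control over all 9 libraries, and again without control replicate 2, with Benjamini-Hochberg adjustment over all genes and a threshold of 0.05. Standard errors are the fold change over the root of F. Transcripts were tested in the same way. The test was checked on simulated data. Alternatives were DESeq2 size factors, upper-quartile and library-size scaling, scaling to 23 other photoreceptor genes, no filter, DESeq2 1.42.0, limma 3.58.1 voom with quality weights, leaving out each library, and the replicate number as a block. Gene models are GENCODE M21 and promoters RefSeq, both on GRCm38. Log2 means per library used a pseudocount of 0.5 CPM. Correlations of each rod gene with the mean of the others used the same pseudocount. Those between libraries used log2 values with a prior count of 2.

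The 37 genes and the other lists were chosen with earlier results of these data known. Values in every library are given, in each of 9 roles, for the gene of highest mean CPM per kb and the one with the smallest unadjusted p, and for all visual cycle genes and transcription factors, which makes 20 genes. A further 9 were added after their values were seen.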

Additional observations from a re-analysis of the deposited data

Results flagged for a closer look

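Within the 4 2-DG libraries, 2 of the 37 rod genes had a single library far from the others on the log2 scale. For Sag, the gap between 2-DG replicate 4 and the next library was 0.8499 of the whole range of the group, and for Reep6 it was 0.848, against a critical value of 0.829 for 4 samples. In both, 2-DG replicate 4 was the highest. Chance marks about 1 in 20 groups in this way, and both groups were looked at for every gene. No cause was tested.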

How the results depend on the processing

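In every gene-level setting run, 0 of the 37 rod genes passed an adjusted p under 0.05, and 0 of their transcripts did over all 9 libraries and without control replicate 2, the only settings run on transcripts. The count over all genes was 0 in edgeR under every scaling and filter, 251 in DESeq2 and 1222 in limma-voom with quality weights. Leaving out single libraries gave 0 to 16 genes (16 without control replicate 2, 2 without 2-DG replicate 4), and 177 without both. The median over the rod genes ran from -0.95 (without 2-DG replicate 4) to 0.15 (without control replicate 2) with 1 library left out, and was 0.39 without control replicates 2 and 5, a setting chosen after the data were seen. With DESeq2 size factors, upper-quartile scaling, library size only, no filter and DESeq2 it was -0.47, -0.59, -0.54, -0.43 and -0.46, and with limma-voom -0.08. With gene counts summed from transcripts it was -0.43, and 18 genes were called in all without control replicate 2.

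The direction turned for several genes. Scaled to other photoreceptor genes, fold changes were Gnat1 0.050, Pde6b 0.046, Cngb1 0.032, Sag 0.12, Rcvrn 0.043, Gucy2e 0.21, Gucy2f 0.19, Reep6 0.30, Abca4 0.012, Nr2e3 0.26 and Crx 0.12. In limma-voom they were Gnat1 0.11, Cngb1 0.016, Gucy2e 0.43, Gucy2f 0.46, Rp1 0.089, Impg2 0.090, Reep6 0.35, Nr2e3 0.39 and Crx 0.22. Summed from transcripts, Impg2 was at 0.0085. With 1 library left out, the range crossed 0 for 27 of the 37 rod genes, a count not taken over all genes. The 8 of them without library values in the text lay between -1.07 and 0.39. For the other 19 it was -0.83 to 0.26 for Gnat1, -1.23 to 0.079 for Pde6a, -1.33 to 0.47 for Pde6b, -0.996 to 0.0036 for Pde6g, -1.36 to 0.030 for Cnga1, -0.97 to 0.25 for Cngb1, -0.74 to 0.21 for Sag, -0.96 to 0.17 for Rcvrn, -0.35 to 0.30 for Gucy2e, -0.29 to 0.17 for Gucy2f, -0.45 to 0.21 for Rp1, -0.53 to 0.19 for Impg2, -0.81 to 0.10 for Unc119, -0.95 to 0.63 for Reep6, -0.15 to 0.41 for Rdh8, -0.85 to 0.28 for Abca4, -1.32 to 0.24 for Nrl, -0.73 to 0.54 for Nr2e3 and -0.31 to 0.12 for Crx. The sign held for the other 10, with ranges of -1.90 to -0.28 for Guca1b, -1.47 to -0.30 for Guca1a, -1.40 to -0.032 for Gngt1, -1.49 to -0.19 for Rdh12, -1.11 to -0.18 for Prom1, -1.02 to -0.037 for Prph2, -0.99 to -0.057 for Aipl1, -1.14 to -0.13 for Rgs9bp, -1.55 to -0.46 for Pdc and 0.38 to 0.94 for Rgs9. Of these 10, the values furthest from 0 came without 2-DG replicate 4, except Rgs9bp (without control replicate 4). The subgroup medians ran from -0.95 to 0.17 for phototransduction, -0.95 to 0.10 for outer segment structure, -0.85 to 0.23 for the visual cycle and -0.73 to 0.24 for transcription factors. The cause was not tested.

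Replicate numbers 1 to 4 occur in both groups. The deviations of same-numbered libraries from their group means correlated at 0.45, -0.15, 0.10 and 0.21, and not every library was closest to its own number. The labels do not say whether the numbers pair the samples, and so few correlations cannot decide it. With the replicate block, without control replicate 5, 0 genes were called in all and the median over the rod genes was -0.13, against -0.46 on the same 8 libraries with no block. With the block, Pde6b was at 0.033, Sag at 0.15, Reep6 at 0.38, Nr2e3 at 0.15 and Rdh8 at -0.0054.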
